A study of Sus scrofa with 24 samples.

Results

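Gene expression in the ileum of sows on a high-fibre diet was compared with and without dietary N-carbamylglutamate (NCG). The comparison holds 6 of the 24 RNA sequencing libraries of the series, chosen by tissue and diet in the labels. The 3 HN libraries come from sows fed 7.46% crude fibre plus 0.05% NCG, and the 3 HF libraries from sows fed 7.46% crude fibre without NCG. All animals were pregnant female pigs, kept on their diet from breeding through a gestation of 114 days, with 100 sows to a diet. A further 6 ileum libraries come from a low-fibre diet (3.73% crude fibre) with 0.05% NCG (LN) or without it (LF), and 6 colon libraries from HN and HF. They enter only where they are named. No label ties a library to a single sow or says that 2 libraries came from different sows, so p-values measure the spread between libraries, which may be technical, and a batch that follows the diet cannot be told apart from it.

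NCG is a stable analogue of N-acetylglutamate, the cofactor that switches on carbamoyl phosphate synthetase I in mitochondria. In the pig small intestine, enterocytes use this enzyme with ornithine transcarbamylase to make citrulline from glutamine and proline, and the kidney and other tissues turn citrulline into arginine. Arginine feeds nitric oxide, polyamine and protein synthesis and acts on mTOR signalling, and NCG is given to sows to raise its supply. The ileum, the last stretch of the small intestine, takes up bile acids through SLC10A2 and FABP6 and carries much lymphoid tissue. Gene functions given here are those known from studies in human, mouse and pig.

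Each of the 6 libraries held 11951729 to 15670819 counts and detected 16310 to 16983 genes. A count of 0 allows up to 3 counts, or 0.191 to 0.251 CPM (counts scaled to library size) by library; this covers counting error only. CPM are scaled with TMM factors, and the values of a group follow the order of its libraries 1, 2 and 3. The libraries did not carry the markers of ileum evenly. FABP6, the bile acid carrier of ileal enterocytes, had 0.447, 774 and 37.6 CPM in HN, against 3.78, 4243 and 13.6 CPM in HF. Its partner SLC10A2, the ileal bile acid transporter, had 0.179, 24.8 and 0.291 CPM with NCG (HN) and 0, 291 and 0.756 CPM without it (HF). HN 2 and HF 2 thus held nearly all of the FABP6 and SLC10A2 signal. SLC51B, another gene of the ileal bile acid list, was lowest in library 2 of each group. It had 181, 29.7 and 79.1 CPM in HN, against 199, 128 and 265 CPM in HF. FGF19, the bile-acid-induced hormone of the ileum, had 0 counts in all 6 libraries.

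Markers of upper small intestine ran against FABP6 and SLC10A2. LCT, the lactase of the brush border, had 313, 2.71 and 121 CPM in the HN libraries, against 196, 2.87 and 196 CPM in the HF libraries. APOA4, a chylomicron apolipoprotein, had 258, 0.361 and 174 CPM in HN, against 477, 33.2 and 274 CPM in HF. HN 2 and HF 2 were the lowest of their groups for both. HN 2 also differed from HF 2: its epithelial marker EPCAM was at 176 CPM, against 537 CPM in HF 2 and 504 to 1044 CPM in the other 4 libraries. Its smooth muscle gene MYH11 was at 2390.0 CPM, against 254 to 446 CPM in the other 5. MS4A1, which encodes the B-cell antigen CD20, had 5.9, 240.1 and 39.2 CPM with NCG (HN) and 4.26, 88.5 and 7.84 CPM without it (HF). Markers of gut region and cell type thus differed among libraries of 1 group, and several results below are also given without HN 2 and HF 2. Without that pair the median log2 change of 12 of the 50 gene lists described here changed sign or came to 0, and with the trend of gene length removed 8 did. In bulk tissue, fewer cells of a type and less RNA per cell cannot be told apart.

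**Figure D1:**
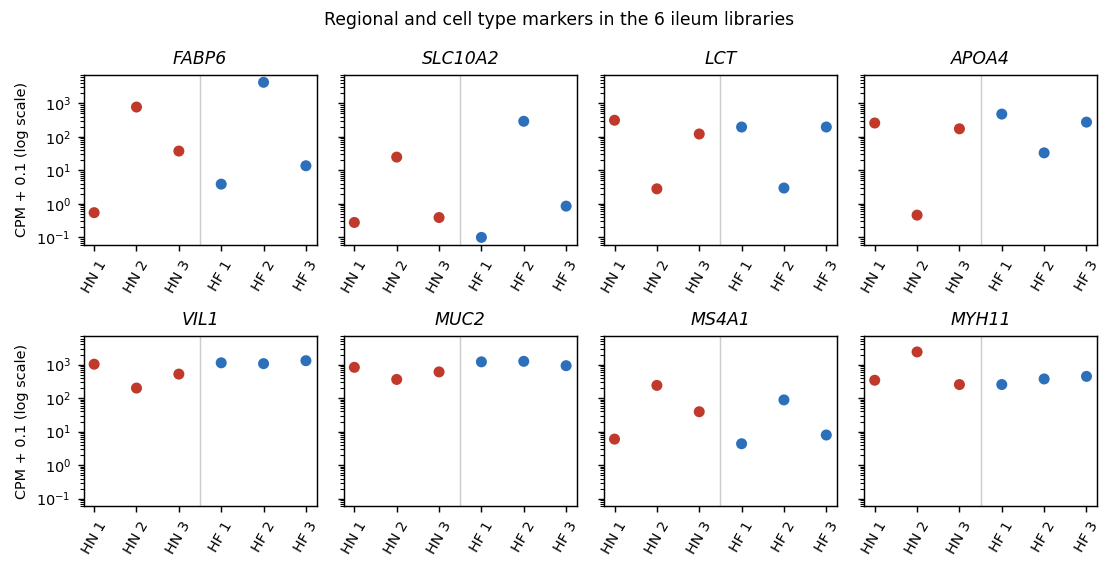
Level of 8 marker genes in each of the 6 ileum libraries, as CPM plus 0.1 on a log axis (red, HN; blue, HF; 1 point per library). HN 2 and HF 2 stand out with high FABP6 and SLC10A2 and low LCT and APOA4, and HN 2 has the lowest VIL1 and the highest MYH11.

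No gene passed the test between HN and HF. Of 15103 genes tested in the edgeR quasi-likelihood fit, 0 (0%) had a Benjamini-Hochberg adjusted p under 0.05, and the smallest adjusted p was 0.322. At an unadjusted p under 0.05 there were 1219 genes (8.07%), against about 755 if no gene differed; 819 of them were higher with NCG (5.42%) and 400 lower (2.65%). limma voom also called 0 genes, with 1204 (7.97%) at an unadjusted p under 0.05. Of the 12841 genes that DESeq2 gave an adjusted p, it called 199 (1.55%), 183 higher (1.43%) and 16 lower (0.125%). DESeq2 on the 6 libraries alone with library number as a block called 569 of 14118 (4.03%), 433 higher (3.07%) and 136 lower (0.963%), whereas edgeR in the same blocked design called 0, with 2200 at an unadjusted p under 0.05 and a smallest adjusted p of 0.111. Without HN 2 and HF 2, edgeR again called 0 genes and the unadjusted count was 733. Counts of DESeq2 calls below are from the fit of 12 libraries unless the block is named. The words higher and lower below therefore describe the measured values of these libraries.

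In 1195 genes (7.91%) every HN library lay above every HF library, and in 1191 (7.89%) every HN library lay below every HF library. The median log2 change over all genes was -0.04, and 6945 genes (46%) had a positive change. Genes with an unadjusted p under 0.05 differed in length by direction: the median length was 6794 bases for the higher genes and 2224 bases for the lower ones, against 3721 bases for all genes tested. In 5 bins of equal size from short to long genes, the median log2 change was -0.24, -0.13, -0.04, 0.05 and 0.18. A fit that removed each library's trend with gene length called 0 genes and left 1056 at an unadjusted p under 0.05. Gene length moved with direction in the whole comparison, but unevenly by library. The median deviation from the mean of the 6 libraries ran from -0.33 in the shortest bin to 0.26 in the longest in HN 2. It ran the other way in HF 1 (0.23 to -0.14) and HF 3 (0.18 to -0.11). In HN 1, HN 3 and HF 2 it stayed between -0.04 and 0.05 in all 5 bins. The part of length in single gene results was not tested beyond that fit.

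**Figure D2:**
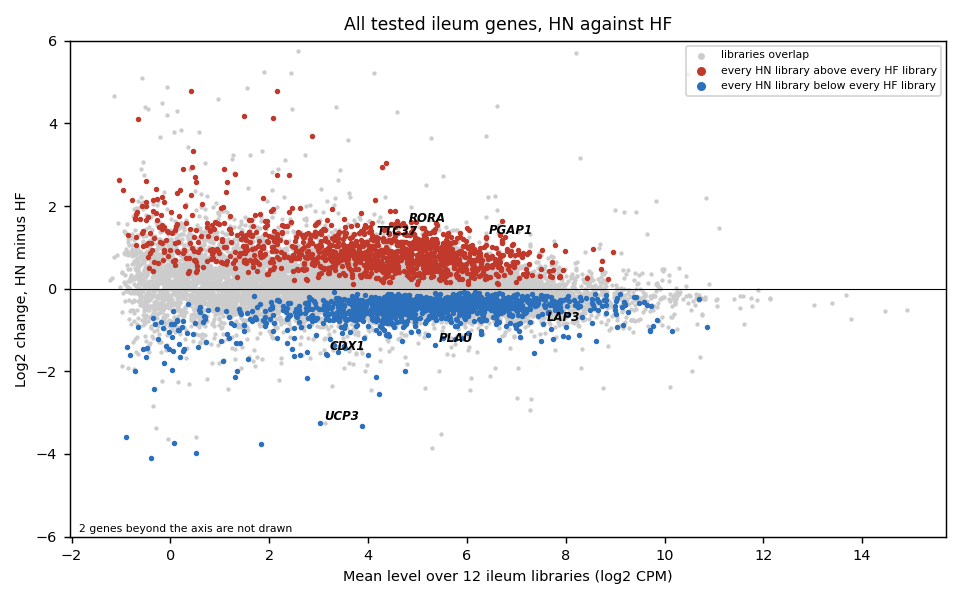
Log2 change of HN minus HF against mean log2 CPM over the 12 ileum libraries, 1 point per gene tested. Red and blue points are the 1195 and 1191 genes in which the HN libraries lie wholly above or wholly below the HF libraries; 2 genes beyond the axis are not drawn, and 7 of the genes described in the text are labelled.

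The 12 genes with the smallest p among those higher in every HN library were PTAR1, PGAP1, PHC3, N4BP2, DENND4A, TTC37, PCGF5, RORA, OSBPL8, ZNF24, LTN1 and SUCO. Their log2 changes lay between 0.98 and 1.52, each with an edgeR adjusted p of 0.322. PTAR1, a prenyltransferase subunit that modifies Rab proteins and a SNARE (chromosome 1, 223028530 to 223089679 in Sscrofa11.1), had 39.2, 53.2 and 39.1 CPM in the HN libraries, against 15.7, 18.8 and 13.2 CPM in the HF libraries. That is a log2 change of 1.46 ± 0.24 (SE). Every HN library stood far above the highest HF library, and HN 2 was the highest of all. PGAP1, which removes the inositol acyl chain from GPI anchors (chromosome 15, 100733552 to 100820603), had 137, 100.0 and 83.5 CPM in HN, against 42.9, 41.6 and 51.5 CPM in HF, a log2 change of 1.24 ± 0.21. HN 1 was the highest library and the HF libraries lay close together.

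PHC3 and PCGF5 encode parts of Polycomb repressive complex 1, which keeps developmental genes silent. PHC3 had 63.2, 79.8 and 64.2 CPM with NCG (HN) and 22.4, 29.5 and 24.6 CPM without it (HF). PCGF5 had 81.8, 83.3 and 58.6 CPM in the HN libraries, against 30.2, 28.6 and 28.7 CPM in the HF libraries. In both genes the HF libraries lay close together and the lowest HN library was well above them, with log2 changes of 1.44 ± 0.25 and 1.35 ± 0.25. RORA, a nuclear receptor that drives the clock gene BMAL1 and lymphoid cell fates, had 34.7, 55.1 and 27.3 CPM in HN, against 14.5, 13.7 and 12.7 CPM in HF. HN 2 was its highest library, yet all 3 HN libraries stood above the HF range, and the log2 change was 1.52 ± 0.28, or 1.26 without HN 2 and HF 2.

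Several of the others act in RNA and protein quality control or membrane traffic. LTN1, the ubiquitin ligase that tags nascent chains on stalled ribosomes, had 40.6, 39 and 33.9 CPM with NCG (HN) and 19.2, 18.6 and 19.3 CPM without it (HF). TTC37, a subunit of the SKI complex that feeds RNA to the exosome, had 26.3, 22.2 and 21.9 CPM in the HN libraries, against 10.5, 10.4 and 9.26 CPM in the HF libraries. N4BP2, a nuclease-domain protein, had 47.7, 43.6 and 38.6 CPM in HN, against 15.8, 16.5 and 18.1 CPM in HF. In these 3 genes the HF libraries differed by little and every HN library lay far above them. DENND4A, an activator of Rab10, OSBPL8, a lipid exchanger at contacts of the endoplasmic reticulum, ZNF24, a zinc finger transcription factor, and SUCO, a protein of the endoplasmic reticulum, had log2 changes of 1.04 ± 0.19, 1.37 ± 0.26, 0.98 ± 0.19 and 1.03 ± 0.20. Without HN 2 and HF 2 the 12 log2 changes were 0.97 to 1.51. Their sign there was set by the rule, which chose genes without overlap, so it is no separate support. DESeq2 called all 12, with adjusted p from 0.000135 to 0.00188, on the same counts from which the rule took the smallest p. Over the 24 alternative settings their adjusted p ran from 6.04e-07 to 1.0.

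The 12 lower genes named by the same rule were KIAA0556, PAPPA, CEBPD, PLAU, GNPDA1, ADGRF2, PGP, PGLYRP2, LAP3, UCP3, CAMKMT and CDX1. Their edgeR adjusted p lay between 0.322 and 0.357. PAPPA, the protease that cleaves IGF-binding proteins and frees IGF (chromosome 1, 256544496 to 256784813), had 7.77, 5.72 and 5.94 CPM with NCG (HN) and 23.4, 11.4 and 15.2 CPM without it (HF), a log2 change of -1.36 ± 0.31. PLAU, the urokinase that activates plasminogen, had 26.5, 22.1 and 28.1 CPM in the HN libraries, against 101, 49.3 and 47.2 CPM in the HF libraries, a log2 change of -1.37 ± 0.32. HF 1 was the highest library for both, but HF 2 and HF 3 also lay above every HN library. CEBPD, a transcription factor of the acute phase response, had 43.2, 26.3 and 38.6 CPM in HN, against 112, 59.9 and 74.8 CPM in HF, again with HF 1 highest and no overlap.

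CDX1, an intestinal homeobox gene that maintains epithelial identity (chromosome 2, 151202842 to 151217132), had 5.27, 2.89 and 4.02 CPM with NCG (HN) and 14, 11.4 and 11 CPM without it (HF). The groups did not overlap, and the log2 change was -1.58 ± 0.43. LAP3, a leucine aminopeptidase, had 175, 117 and 139 CPM in the HN libraries, against 293, 241 and 254 CPM in the HF libraries. PGLYRP2, an amidase that cuts bacterial peptidoglycan, had 5.63, 2.23 and 7.16 CPM in HN, against 13.3, 16.1 and 13.8 CPM in HF. HN 2 was the lowest library for all 3 of these genes. The summed level of 23 enterocyte markers, CDX1 among them, was 1801 to 20925 CPM in HN and 8566 to 22234 CPM in HF, with HN 2 the lowest, and its part in these differences was not tested. Without HN 2 and HF 2, the log2 change was -1.36 for CDX1, -0.73 for LAP3 and -1.01 for PGLYRP2, against -1.52 ± 0.40 with it.

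UCP3, a mitochondrial carrier of the uncoupling protein family (chromosome 9, 8378023 to 8389452), had 0.179, 0.542 and 0.291 CPM with NCG (HN) and 3.62, 5.43 and 1.04 CPM without it (HF). Its log2 change, -3.26 ± 0.87, was the largest of the 24 but at low counts, and HN 1 was below the level that a count of 0 allows. KIAA0556, a cilium protein, GNPDA1, which returns glucosamine 6-phosphate to glycolysis, ADGRF2, an adhesion receptor, PGP, the phosphoglycolate phosphatase, and CAMKMT, a calmodulin methyltransferase, had log2 changes of -0.73 ± 0.17, -0.64 ± 0.15, -1.02 ± 0.26, -1.12 ± 0.29 and -0.79 ± 0.21. The 12 log2 changes were -3.16 to -0.52 without HN 2 and HF 2, again with a sign set by the rule. DESeq2 called all 12, with adjusted p from 0.00299 to 0.0408, on the same counts from which the rule took the smallest p. Over the 24 settings the adjusted p ran from 0.000418 to 1.0.

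**Figure D3:**
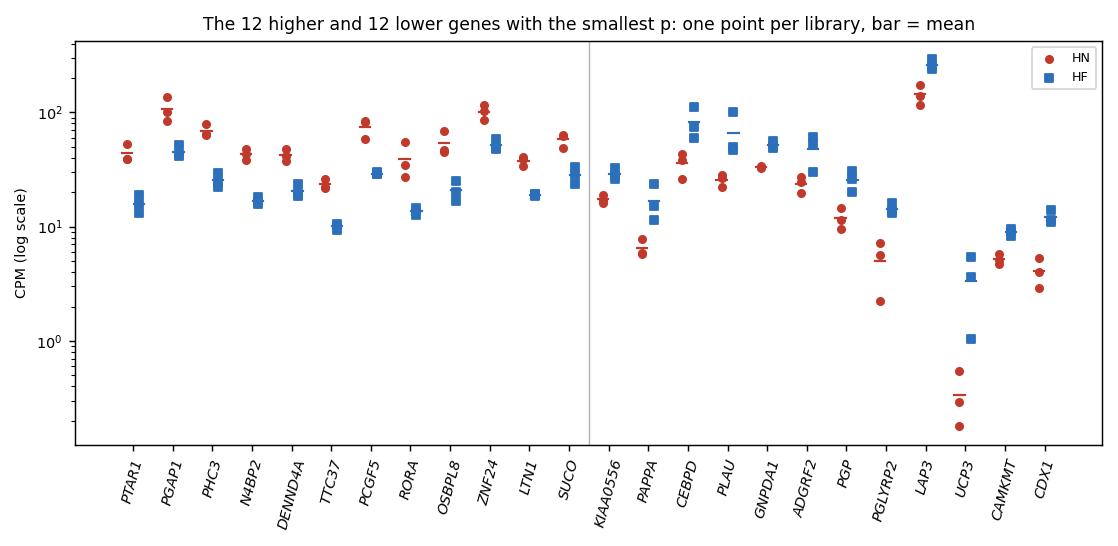
CPM on a log axis for the 12 higher genes (left of the line) and the 12 lower genes (right of it), 1 point per library with a bar at the group mean (red circles, HN; blue squares, HF). By the rule that chose the genes, the 3 HN points never overlap the 3 HF points.

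None of the enzymes on the route that NCG acts on passed the test. CPS1, the carbamoyl phosphate synthetase that NCG activates, had 928, 153 and 485 CPM in the HN libraries, against 1069, 363 and 1242 CPM in the HF libraries, and a log2 change of -0.77 ± 0.62 (edgeR adjusted p = 0.78). OTC, which joins carbamoyl phosphate to ornithine to give citrulline, had 474, 40.5 and 187 CPM in HN, against 288, 96.3 and 508 CPM in HF, a log2 change of -0.35 ± 0.73 (edgeR adjusted p = 0.917). NAGS, which makes the natural activator, had 42.9, 6.21 and 16.1 CPM with NCG (HN) and 30.7, 18.6 and 35.4 CPM without it (HF), a log2 change of -0.38 ± 0.53 (edgeR adjusted p = 0.863). In all 3 genes the groups overlapped and library 2 was the lowest of its group. OTC turned to a change of 0.15 without HN 2 alone and 0.28 without HF 3 alone, and NAGS to 0.06 without HN 2.

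By length-scaled level, the deposited FPKM placed OAT, the ornithine aminotransferase, highest among these enzymes, with a mean of 381 ± 264 FPKM in HN and 542 ± 122 FPKM in HF (SD, n = 3 each). GLUD1, the glutamate dehydrogenase, followed with 136 ± 66 FPKM in HN and 162 ± 43.7 FPKM in HF. OTC was at 117 ± 98.5 FPKM in HN and 136 ± 85 FPKM in HF, and CPS1 at 89.3 ± 56.4 FPKM in HN and 139 ± 61.8 FPKM in HF, so that their order differed between the groups. ALDH18A1, which makes pyrroline 5-carboxylate from glutamate, was at 78.2 ± 38.9 FPKM in HN and 103 ± 17.1 FPKM in HF, and NAGS at 19.8 ± 14.9 FPKM in HN and 24.2 ± 4.84 FPKM in HF. For each of the 6 the SD of the HN libraries exceeded the gap between the group means. Of 12 tested genes of carbamoyl phosphate and citrulline synthesis, 0 were called by either edgeR or DESeq2 and 3 had a positive change, with a median log2 change of -0.39, against -0.04 for all genes. The median was -0.22 without HN 2 and HF 2, with changes of -0.20 for OTC and -0.10 for NAGS.

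Further along the arginine route, ASS1, the argininosuccinate synthase, had 10.2, 24.8 and 13.7 CPM in the HN libraries, against 6.03, 125 and 14.8 CPM in the HF libraries. Its log2 change of -1.58 ± 1.32 rested on HF 2, and it was 0.27 without HN 2 and HF 2. ARG2, the mitochondrial arginase, had 23.5, 9.82 and 18.2 CPM in HN, against 47.7, 9.05 and 52.5 CPM in HF, a log2 change of -1.09 ± 0.58 (edgeR adjusted p = 0.677), with HN 1 and HN 3 below HF 1 and HF 3 and both libraries 2 low. SMS, the spermine synthase, and OAZ1, the antizyme that restrains polyamine synthesis, had log2 changes of -0.51 ± 0.22 and -0.42 ± 0.21. Of 20 genes of arginine, nitric oxide and polyamine metabolism 7 had a positive change and the median was -0.16. In 1 of the 20 the HN libraries lay wholly below HF, near the 7.89% of all genes. The mean log2 CPM over these 20 genes did not overlap, at 4.71 to 5.02 in HN and 5.08 to 5.13 in HF. Such means overlapped in 45 of the 50 lists, lay higher in HN in 2 and lower in 3, and without HN 2 and HF 2 the median of the list was -0.10.

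Amino acid transporters gave no common direction, with 9 of 20 positive, a median of -0.07 and 0 called. Without HN 2 and HF 2 17 of 20 were positive, with a median of 0.31, which leaned on HN 1. The mean log2 CPM of the list was 5.49 in HN 1 and 5.10 in HN 3, against 5.09 in HF 1 and 5.12 in HF 3. SLC7A11, the cystine and glutamate exchanger, had 5.18, 8.8 and 2.56 CPM with NCG (HN) and 1.21, 2.81 and 1.89 CPM without it (HF), a log2 change of 1.48 ± 0.55, with HN 3 below HF 2. SLC38A9, the lysosomal arginine sensor of mTORC1, had 53.5, 43.9 and 36.7 CPM in the HN libraries, against 32.9, 32.3 and 35 CPM in the HF libraries. The groups of SLC38A9 did not overlap, and its log2 change was 0.42 ± 0.19. It was the 1 of 20 transporters wholly above HF and 0 lay wholly below, against 7.91% and 7.89% of all genes.

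The title of the series names the PI3K-Akt pathway, so the lists for this pathway are not independent evidence of its direction. Of 27 core PI3K-Akt genes 16 had a positive change with a median of 0.06, edgeR called 0, and DESeq2 called 2, both higher, against 1.43% of all genes. These were PIK3CA, the catalytic subunit that makes the lipid PIP3 at receptors, and PIK3C2A, a class II kinase of endosomes and cilia. PIK3CA had 26.2, 56.6 and 26.6 CPM in HN, against 9.65, 16 and 11.7 CPM in HF, a log2 change of 1.55 ± 0.41 (edgeR adjusted p = 0.349; DESeq2 adjusted p = 0.0323; 4.7e-05 to 1.0 over the 24 settings). PIK3C2A had 25, 30.0 and 28.4 CPM with NCG (HN) and 10.2, 9.61 and 6.81 CPM without it (HF), a log2 change of 1.64 ± 0.39 (edgeR adjusted p = 0.322; DESeq2 adjusted p = 0.0121; 2.03e-05 to 1.0 over the 24 settings). Neither overlapped between groups, and for PIK3CA the highest library was HN 2. INPP4B, a phosphatase that acts on PI(3,4)P2, also did not overlap, with 34.6, 65.5 and 37 CPM in the HN libraries, against 18.7, 25.8 and 23.6 CPM in the HF libraries. Of the 27 core genes 3 lay wholly above HF and 1 wholly below, against 7.91% and 7.89% of all genes.

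The kinase at the centre of the pathway differed less. AKT1 had 98.1, 96.5 and 127 CPM in HN, against 146, 123 and 117 CPM in HF, and HN 3 lay inside the HF range. Its log2 change was -0.26 ± 0.18, or -0.16 without HN 2 and HF 2. GSK3A, a kinase that Akt inhibits, had 72.4, 52.3 and 69.7 CPM with NCG (HN) and 97.7, 89.8 and 85.9 CPM without it (HF), with every HN library below every HF library and a log2 change of -0.49 ± 0.21.

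Genes of the mTOR complexes lay on both sides. RICTOR, the scaffold of mTORC2, had 42.2, 55.5 and 30.4 CPM in the HN libraries, against 14, 17.2 and 10.6 CPM in the HF libraries, a log2 change of 1.62 ± 0.34 (edgeR adjusted p = 0.322; DESeq2 adjusted p = 0.00566; 2.93e-07 to 1.0 over the 24 settings). RPS6KB1, the S6 kinase downstream of mTORC1, had 77.8, 80.8 and 51.2 CPM in HN, against 35.7, 42.5 and 41.9 CPM in HF, a log2 change of 0.80 ± 0.18. Both were higher in every HN library, and they were the 2 of 27 that DESeq2 called, against 1.43% higher calls over all genes. MTOR itself had 76.5, 63.4 and 75.8 CPM with NCG (HN) and 102, 85.6 and 89.9 CPM without it (HF), lower in every HN library with a log2 change of -0.36 ± 0.19, and RPTOR, the scaffold of mTORC1, had 38.9, 29 and 31.4 CPM in the HN libraries, against 46.5, 38.7 and 44.2 CPM in the HF libraries, overlapping only through HN 1 and HF 2. Of 27 genes of this list 9 were positive, the median was -0.17, and 3 lay wholly above and 3 wholly below HF, against 7.91% and 7.89% of all genes.

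Growth factors and receptors upstream of PI3K-Akt gave 20 of 41 positive and a median of -0.01, with 0 called by edgeR or DESeq2. In 6 of the 41 the HN libraries lay wholly above HF and in 4 wholly below, against 7.91% and 7.89% of all genes. ERBB4, a receptor for neuregulins, had 7.68, 8.19 and 12.7 CPM in HN, against 1.53, 2.81 and 3.59 CPM in HF, a log2 change of 1.85 ± 0.55 (edgeR adjusted p = 0.388). KDR, the VEGF receptor of endothelium, had 35, 38.5 and 47.1 CPM with NCG (HN) and 100.3, 55.6 and 69.9 CPM without it (HF), a log2 change of -0.90 ± 0.31, and PDGFRB, the PDGF receptor of pericytes, had 72.4, 55.1 and 73.3 CPM in the HN libraries, against 135, 89 and 91.6 CPM in the HF libraries. All 3 genes were free of overlap, ERBB4 higher and the others lower. DESeq2 on 6 libraries with the block called 4 of the 41, all higher, against 3.07% of all genes. ERBB4 was among them (adjusted p = 0.000446, and 0.000446 to 1.0 over the 24 settings). HBEGF, a ligand of the EGF receptor, was also lower in every HN library, with 5.27, 4.7 and 5.3 CPM in HN, against 10.5, 7.92 and 8.6 CPM in HF.

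Integrin subunits, which bind matrix and signal to PI3K, had 12 of 23 positive and a median of 0.03. ITGAV, the alpha subunit of the vitronectin receptor, had 71.5, 107 and 116 CPM with NCG (HN) and 62.2, 59.6 and 49.3 CPM without it (HF), a log2 change of 0.79 ± 0.22. It was the 1 member of 23 that DESeq2 called on 12 libraries, against 1.43% higher calls over all genes. ITGA4, which guides lymphocytes to the gut, had 68.7, 108 and 67.6 CPM in the HN libraries, against 19.9, 37.9 and 26.7 CPM in the HF libraries, and ITGB8, which activates TGF-beta, had 32.2, 26.8 and 22.5 CPM in HN, against 7.96, 16.4 and 14.1 CPM in HF. Every HN library was above every HF library in these genes. Of the 23 subunits 3 lay wholly above HF and 1 wholly below, against 7.91% and 7.89% of all genes. With the block and 6 libraries DESeq2 called ITGA4 in place of ITGAV (adjusted p = 4.61e-07, and 4.61e-07 to 1.0 over the 24 settings), against 3.07% higher calls over all genes. ITGB3 was the reverse, with 23.1, 17 and 20.8 CPM with NCG (HN) and 37.4, 27.3 and 30.7 CPM without it (HF).

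The list with the most members wholly above HF was that of ubiquitin ligases and deubiquitinases, large enzymes that tag proteins for turnover or remove the tag. Like all 50 lists it was chosen with earlier results of these data known, so its rank is not independent evidence. Of 30 tested, 27 had a positive change with a median log2 change of 0.54, 14 lay wholly above HF and 0 wholly below, against 7.91% and 7.89% of all genes. DESeq2 called 6, all higher, against 1.43% of all genes, and 11, all higher, with the block and 6 libraries, against 3.07%. UBR1, a ligase of the N-degron pathway, had 47.1, 50.9 and 45.9 CPM in the HN libraries, against 27.4, 28.6 and 29.6 CPM in the HF libraries, a log2 change of 0.75 ± 0.15. USP34, a deubiquitinase, had 85.6, 111 and 92.1 CPM in HN, against 46.1, 58.5 and 44.8 CPM in HF, and USP1, which acts in DNA repair, had 53.6, 95.3 and 57.9 CPM with NCG (HN) and 31, 38.3 and 26.6 CPM without it (HF). In each, all HN libraries were above all HF libraries. The list median was 0.56 without HN 2 and HF 2 and 0.36 once the length trend was removed, and the median length of its members was 9286 bases. In the bin of the longest genes 406 of 3021 were higher at an unadjusted p under 0.05, as were 14 of these 30. The mean log2 CPM of the list lay at 5.87 to 6.36 in HN and at 5.45 to 5.78 in HF.

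Chromatin modifiers, also long genes (median 9084 bases), had 28 of 34 positive, a median of 0.24 and 11 wholly above HF, with 0 below. The shares over all genes were 7.91% and 7.89%. DESeq2 called 3 of them higher, against 1.43% of all genes, and 4 with the block and 6 libraries, against 3.07%. CHD9, a chromatin remodeller, had 46.3, 52 and 43.4 CPM in the HN libraries, against 24.4, 21.3 and 21.5 CPM in the HF libraries, a log2 change of 1.08 ± 0.26. ATRX, another remodeller, had 29.5, 49.4 and 38.1 CPM in HN, against 14.7, 18.4 and 14.7 CPM in HF, a log2 change of 1.29 ± 0.35. CHD1, which DESeq2 called only in that blocked fit (adjusted p = 0.000737; 0.000737 to 1.0 over the 24 settings), had 38.9, 56.1 and 36.7 CPM with NCG (HN) and 14.3, 23.7 and 19.6 CPM without it (HF), a log2 change of 1.19 ± 0.33. With the length trend removed 19 of 34 were positive and the median was 0.13. Among clock genes 12 of 19 were positive with a median of 0.36, and NR1D2, the REV-ERB beta repressor, had 119, 138 and 107 CPM in the HN libraries, against 47, 64.1 and 36.2 CPM in the HF libraries, a log2 change of 1.31 ± 0.28 with no overlap. Of the 19 clock genes 3 lay wholly above HF and 1 wholly below, against 7.91% and 7.89% of all genes. DBP and NR1D1, which peak with the daily cycle, had 15.2, 15.2 and 27.4 CPM in HN, against 5.39, 15.5 and 5.77 CPM in HF, and 16.8, 18.3 and 23.4 CPM with NCG (HN) and 8.2, 18.1 and 5.77 CPM without it (HF). HF 2 was level with HN in both, and without HN 2 and HF 2 the log2 changes were 2.01 for DBP, against 1.11 ± 0.42 with the pair, and 1.59 for NR1D1, against 0.86 ± 0.41. The list median was then 0.67. No label used here gives the hour of sampling, and its part was not tested.

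SKIL, a brake on TGF-beta signalling, was the 1 gene of 29 in the TGF-beta and SMAD list that DESeq2 called, where 1.43% of all genes were called higher. It had 72.4, 62.2 and 43.5 CPM in the HN libraries, against 26.5, 25.7 and 26.7 CPM in the HF libraries and a log2 change of 1.17 ± 0.26. SMAD5, a signal carrier of bone morphogenetic proteins, had 49.1, 44.2 and 44.8 CPM in HN, against 33.1, 30.1 and 33.8 CPM in HF. Both were free of overlap, but the list was split, with 13 of 29 positive and a median of -0.07. Of the 29 genes 3 lay wholly above HF and 1 wholly below, against 7.91% and 7.89% of all genes.

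Lipid and energy genes were lower in most members. All 21 tested genes of cholesterol synthesis and uptake had a negative change, with a median log2 change of -0.84, and 11 of them lay wholly below HF, against 7.89% of all genes. SQLE, the squalene epoxidase, had 33.3, 20.7 and 50.7 CPM with NCG (HN) and 95.5, 60.7 and 87 CPM without it (HF), a log2 change of -1.22 ± 0.53. FDPS, which makes farnesyl diphosphate, had 57.3, 28.9 and 72.7 CPM in the HN libraries, against 122, 84.7 and 132 CPM in the HF libraries, a log2 change of -1.09 ± 0.45. HN 2 was the lowest library in both, but HN 1 and HN 3 were also below every HF library. On 12 libraries neither edgeR nor DESeq2 called a member, and the edgeR adjusted p lay at or above 0.572. DESeq2 on 6 libraries with the block called 9 of the 21, all lower, against 0.963% of all genes. SQLE (adjusted p = 0.00119; 0.00119 to 1.0 over the 24 settings) and FDPS (adjusted p = 0.00194; 0.00194 to 1.0) were among them, whereas edgeR in the same design called 0 genes. The median was -0.63 without HN 2 and HF 2, -0.81 with the length trend removed, -0.56 between LN and LF and -1.15 between HN and HF in colon. The mean log2 CPM of the list was 4.07 to 5.19 in HN and 5.26 to 5.80 in HF.

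Nuclear genes for oxidative phosphorylation had 0 of 41 positive and a median of -0.57, although only 2 lay wholly below HF, against 7.89% of all genes. COX7A2, a cytochrome c oxidase subunit, had 77.4, 46.3 and 81.2 CPM in HN, against 114, 98 and 116 CPM in HF. HN 2 was the lowest library of the 6, and HN 1 and HN 3 also lay below every HF library. These are short transcripts (median 843 bases), and the list median was -0.30 with the length trend removed. Fatty acid oxidation had 2 of 26 positive and a median of -0.50, with HADHA, the trifunctional protein subunit, at 323, 151 and 194 CPM with NCG (HN) and 349, 331 and 400.1 CPM without it (HF). Its HN libraries lay below HF by a small margin in HN 1, and the list median was -0.30 without HN 2 and HF 2. Cytosolic ribosomal proteins had 2 of 67 positive and a median of -0.22, which turned to 0.08 with the length trend removed. Mitochondrially encoded subunits had 3 of 13 positive, with a median of -0.26 that turned to 0.11 in the same fit. Summed, these 13 genes took 39370 to 78747 CPM in HN and 53635 to 91724 CPM in HF.

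Proteasome subunits, the protease that degrades tagged proteins, had 2 of 32 positive and a median of -0.36, with 9 wholly below HF, against 7.89% of all genes. PSMD2, a regulatory subunit, had 187, 173 and 183 CPM in the HN libraries, against 287, 256 and 229 CPM in the HF libraries, and PSMC1, an ATPase of its base, had 76.8, 64 and 75.9 CPM in HN, against 118, 86 and 104 CPM in HF, each without overlap. Core spliceosome and exon junction genes had 4 of 33 positive, a median of -0.28 and 20 wholly below HF, against the same share. SF3B5 had 46.2, 30.2 and 45.1 CPM with NCG (HN) and 74.6, 49.6 and 77.9 CPM without it (HF), a log2 change of -0.73 ± 0.22, and MAGOH, of the exon junction complex, had 24.2, 24.9 and 21.3 CPM in the HN libraries, against 42, 31.4 and 32.6 CPM in the HF libraries, a log2 change of -0.59 ± 0.17. SF3B1, the large scaffold of the U2 particle, went the other way with 619, 808 and 555 CPM in HN, against 347, 417 and 317 CPM in HF, a log2 change of 0.87 ± 0.28. The spliceosome median was -0.09 and that of the proteasome -0.17 with the length trend removed.

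**Figure D4:**
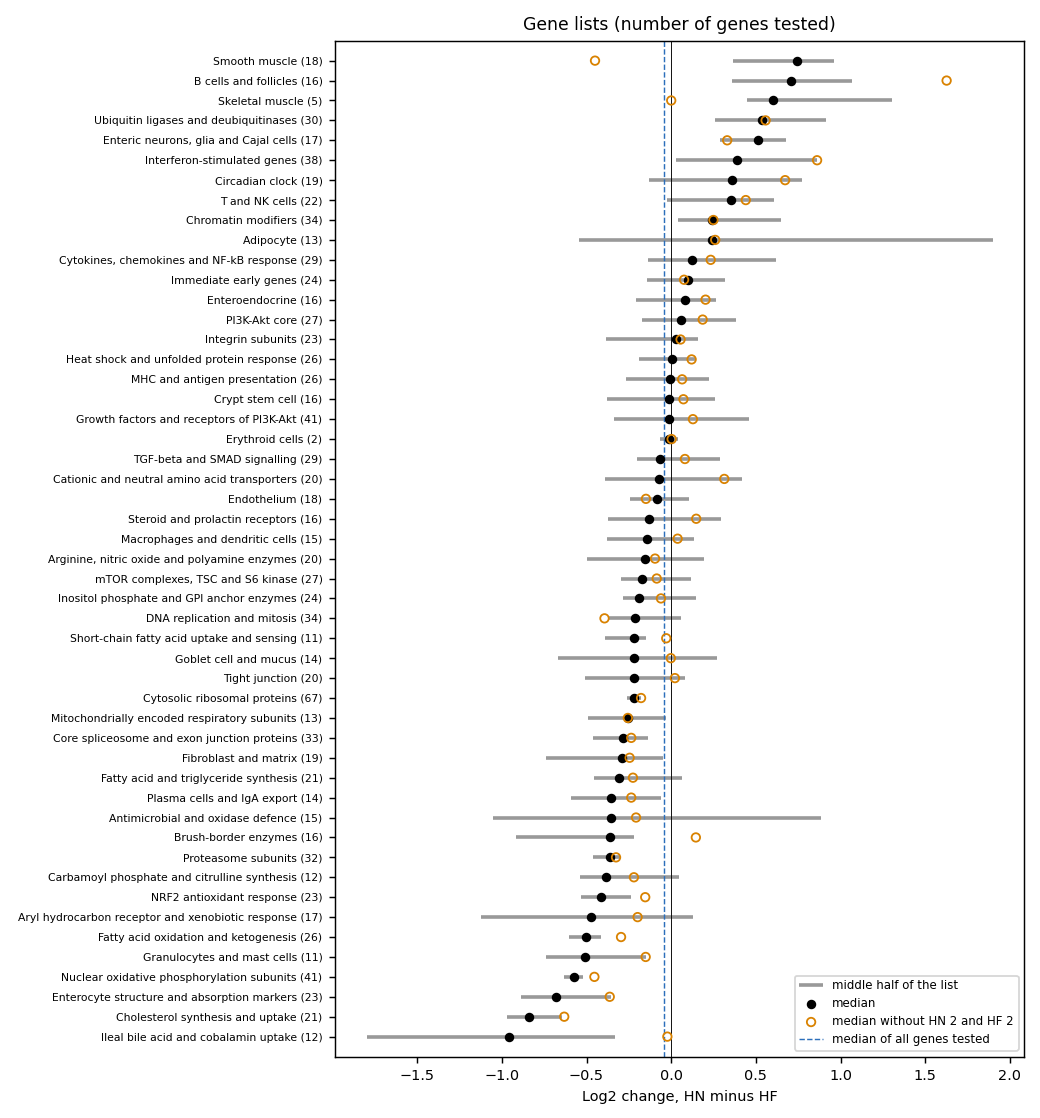
Median log2 change of HN minus HF for 50 gene lists (black points; grey bars, lower to upper quartile) with the number of genes tested in brackets. Open orange circles give the median without HN 2 and HF 2, and the dashed line the median of all genes (-0.04). Smooth muscle, ileal bile acid and B-cell lists shift most between the black and the open points.

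Most enterocyte and brush-border genes had a negative change, with HN 2 the lowest library in the mean of both lists. HN 1 did not share this. Its mean log2 CPM was 8.78 for enterocyte markers, against 7.37 to 8.86 in HF, and 8.15 for brush-border enzymes, against 7.07 to 7.52 in HF. Of 23 enterocyte markers 1 was positive, with a median of -0.68, or -0.36 without HN 2 and HF 2. VIL1, the actin bundler of microvilli, had 1029.8, 199.8 and 521 CPM with NCG (HN) and 1132, 1070.2 and 1310.4 CPM without it (HF). It did not overlap, but HN 1 was just below the HF libraries and without HN 2 and HF 2 its change was -0.59. Brush-border enzymes had 2 of 16 positive and a median of -0.36, which turned to 0.15 with 13 of 16 positive without that pair. MEP1A, a meprin, had 62.7, 48.7 and 8.1 CPM in the HN libraries, against 28, 691 and 44.6 CPM in the HF libraries, and ENPEP, the glutamyl aminopeptidase, had 401, 252 and 40.6 CPM in HN, against 148, 1404 and 272 CPM in HF. HF 2 held nearly all of the difference in both, and both turned positive without HN 2 and HF 2. The 12 tested genes of ileal bile acid and cobalamin uptake had a median of -0.96, and of -0.02 without the pair.

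Goblet cell genes had members on both sides. MUC2, the gel-forming mucin, had 831, 361 and 607 CPM with NCG (HN) and 1210.0, 1253 and 929.5 CPM without it (HF), CLCA1, a secreted mucus protease, had 1045, 624 and 742 CPM in the HN libraries, against 1658, 1623 and 1618 CPM in the HF libraries, and ATOH1, the factor of secretory cell fate, had 17.8, 12.7 and 18.2 CPM in HN, against 28.1, 37.9 and 23.3 CPM in HF. In these 3 genes every HN library was below every HF library, with log2 changes of -0.92 ± 0.55, -1.02 ± 0.43 and -0.88 ± 0.46. They were -0.51, -0.81 and -0.45 without HN 2 and HF 2. C1GALT1, which extends O-glycans, was higher in every HN library, with 65.3, 70.0 and 110.4 CPM with NCG (HN) and 51.8, 53.2 and 57 CPM without it (HF). Over the list 1 of 14 lay wholly above HF and 3 wholly below, against 7.91% and 7.89% of all genes. In all 4 of 14 were positive, with a median of -0.22, and of -0.0023 without HN 2 and HF 2. DUOX2, the epithelial peroxide source, was higher, with 10.1, 11.5 and 31.4 CPM in the HN libraries, against 3.62, 8.42 and 8.98 CPM in the HF libraries, and REG4, a secretory cell lectin, lower, with 261, 128 and 87.1 CPM in HN, against 340.2, 419 and 313 CPM in HF, while the 15 defence genes had a median of -0.35, or -0.21 without the pair.

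The fibroblast and smooth muscle lists had medians of opposite sign, but both were negative without HN 2 and HF 2. Fibroblast and matrix genes had 4 of 19 positive, a median of -0.29 and 6 wholly below HF, against 7.89% of all genes. Without that pair 7 of 19 were positive, with a median of -0.25. VCAN, the proteoglycan versican, had 54.3, 53.7 and 54 CPM with NCG (HN) and 89.1, 90.9 and 97.1 CPM without it (HF), a log2 change of -0.77 ± 0.23. COL3A1, a fibrillar collagen, had 1296, 1136 and 1559.8 CPM in the HN libraries, against 2209, 2929 and 2427 CPM in the HF libraries, a log2 change of -0.92 ± 0.28. It was the 1 member that DESeq2 called (adjusted p = 0.0446, and 0.0214 to 1.0 over the 24 settings), against 0.125% lower calls over all genes. With the block and 6 libraries 4 were called, all lower, against 0.963%. SPARC, a collagen-binding protein, had 295, 322 and 401 CPM in HN, against 602, 624 and 713 CPM in HF. The HN libraries lay close together for VCAN and all 3 genes were free of overlap. ENG, an endothelial receptor of TGF-beta, was lower in every HN library, with 47.8, 44.3 and 57.8 CPM with NCG (HN) and 96, 68.9 and 62.3 CPM without it (HF). The endothelial list as a whole had 7 of 18 positive and a median of -0.08, against -0.04 for all genes. In it 2 of 18 lay wholly below HF, against 7.89% of all genes. Smooth muscle genes had 17 of 18 positive and a median of 0.75, but the median was -0.45 with 4 of 18 positive without HN 2 and HF 2. ACTA2, smooth muscle actin, went against the list, with 212, 191 and 199.9 CPM in the HN libraries, against 374, 299 and 397 CPM in the HF libraries.

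Some of these genes can be set beside NCG on low fibre, where LN minus LF shares no library with HN minus HF. All 12 higher genes were also positive there, and in each the change was larger, with a median of 1.98 against 1.29 on high fibre. LN 3, LF 1 and LF 3 stood apart there. MYH11 was at 3643 CPM in LN 3 and 15495 CPM in LF 3, and ADIPOQ, the adipocyte hormone, was at 1144 CPM in LN 3 and at 0.618 to 2.04 CPM in the LF libraries. Of these 6 libraries LF 1 was by far the highest for FABP6, SLC10A2 and FGF19. FABP6 was at 0.200 to 6.95 CPM in LN and at 8167 CPM in LF 1, SLC10A2 at 0 CPM in LN and 218 CPM in LF 1, and FGF19 at 0 CPM in LN and 10.9 CPM in LF 1. SLC51B did not follow them, at 160 to 251 CPM in LN and 235 CPM in LF 1. The part of these libraries in the values between LN and LF was not tested. LTN1 had a log2 change of 2.15 ± 0.20 between LN and LF and PTAR1 of 2.03 ± 0.25. Of the 12 lower genes 9 were negative between LN and LF. Of the 819 genes higher at an unadjusted p under 0.05, 798 (97.4%) were positive between LN and LF, against 47.0% of all genes, and of the 400 lower 334 (83.5%) were negative, against 53.0%. In colon, 796 of the 819 (97.2%) were positive, against 50.0% of all genes, and 367 of the 400 (91.8%) negative, against 49.8%. The labels do not say whether colon and ileum libraries came from the same sows. The trend with gene length had the same order in all 3 comparisons, with medians from the shortest to the longest bin of -0.20 to 0.18 between LN and LF and of -0.22 to 0.33 in colon, and its part in these shares was not tested.

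**Figure D5:**
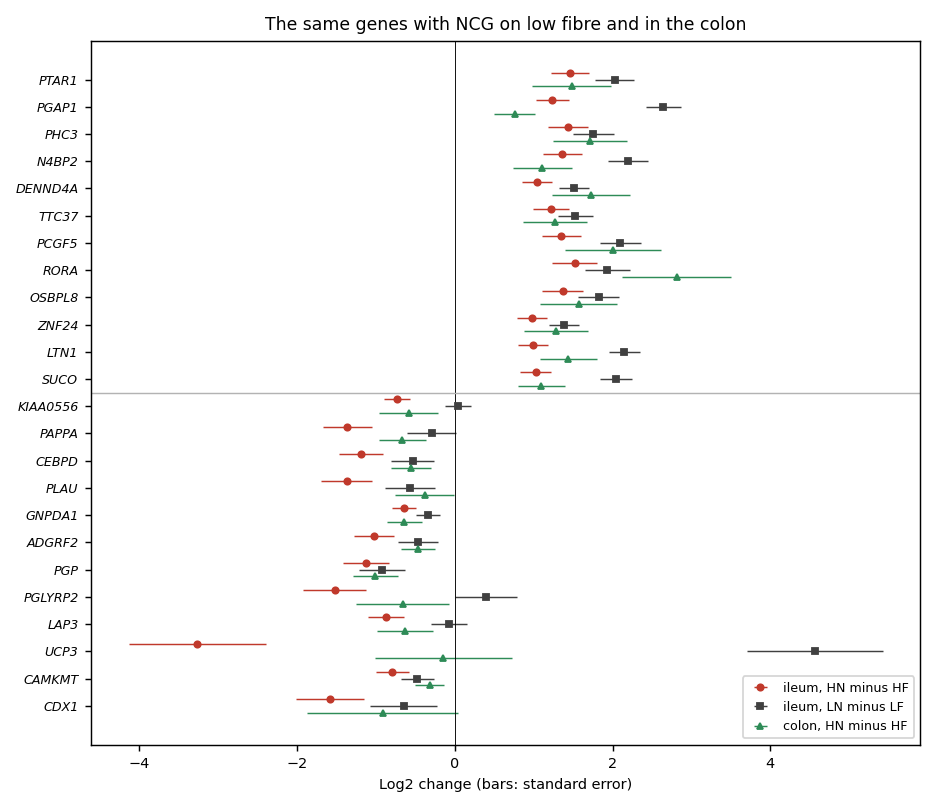
Log2 change with its standard error for the 12 higher and 12 lower genes in ileum HN minus HF (red circles), ileum LN minus LF (black squares) and colon HN minus HF (green triangles). The higher genes lie right of 0 in all 3 comparisons, while UCP3 lies far left in HN minus HF and far right in LN minus LF.

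Whether the NCG difference itself differed between diets was tested as an interaction. In edgeR 0 of 15103 genes passed (0%), while 672 (4.45%) had an unadjusted p under 0.05, with a smallest adjusted p of 0.0917, limma voom called 0, with 643, and DESeq2 called 20. UCP3 had the smallest p among the genes that the rule allowed, with a difference of -7.82 ± 1.22 in log2 (edgeR adjusted p = 0.453; 1.11e-07, with DESeq2, to 0.918 over 18 settings). It had 0.179, 0.542 and 0.291 CPM in HN, 3.62, 5.43 and 1.04 CPM in HF, 23.9, 11.07 and 46.7 CPM in LN and 0.649, 2.4 and 0.438 CPM in LF, so that the HN libraries were low on high fibre and the LN libraries high on low fibre. PGAP1 had 137, 100.0 and 83.5 CPM in HN, 42.9, 41.6 and 51.5 CPM in HF, 169, 129.6 and 166 CPM in LN and 25.6, 26.4 and 22.4 CPM in LF, a difference of -1.41 ± 0.29, with HF above LF and HN below LN in every library but HN 1, which lay above LN 2. ETNK1, the ethanolamine kinase, differed by -1.87 ± 0.36, TMEM176A, a membrane protein, by -2.00 ± 0.41 and B4GALT5, a galactosyltransferase, by -1.26 ± 0.27, each with an edgeR adjusted p of 0.872.

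The difference between ileum and colon on high fibre gave 0 of 15675 genes in edgeR (0%), where 251 (1.6%) had an unadjusted p under 0.05, and a smallest adjusted p of 1.0. limma voom also called 0, with 119, and DESeq2 called 2. The 5 genes with the smallest p that the rule allowed were ALPL, EPB41L3, SPRY4, ADAMTS3 and COL8A2, all with a negative difference. ALPL, an alkaline phosphatase, differed by -4.11 ± 1.26. It had 2.5, 1.99 and 2.39 CPM in HN, against 4.18, 2.99 and 3.02 CPM in HF in ileum, and in colon 125, 23.1 and 3.55 CPM in HN and 4.31, 2.89 and 5.16 CPM in HF. Colon HN 1 held MYH11 at 35726 CPM, against 5611 and 488 CPM in the other colon HN libraries. The colon value of ALPL rested on the same library, and without it the difference was -2.17. EPB41L3, SPRY4 and COL8A2 also leaned on colon HN 1, with differences of -3.10, -1.66 and -3.10 that became -1.44, -1.14 and -1.81 without it. ADAMTS3 differed by -1.40 ± 0.43. In the ileum alone, SPRY4, a feedback inhibitor of receptor tyrosine kinases, had 6.07, 5.9 and 5.88 CPM with NCG (HN) and 15.4, 8.73 and 13.5 CPM without it (HF), and every HN library was below every HF library.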

How the data were processed

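Poly(A) RNA of ileum and colon was reverse transcribed with random primers and read paired-end on an Illumina instrument, per the labels' protocols. fastp 0.22.0, HISAT2 2.1.0, HTSeq 0.9.1 and the build Sscrofa11.1 are named in the submitters' processing notes, with no settings or strand mode; overlapping and antisense genes and near-identical copies may thus share reads. The deposited table holds raw whole read counts per gene for 20674 genes. The FPKM values deposited by the authors follow from those counts, length and library total within a relative difference of 2.10e-07 and serve only for levels per length. The authors' gene lengths are another kind of value, in bases per the file headers. All 20674 IDs matched RefSeq Sscrofa11.1.

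Counts were fitted in R 4.3.3 with edgeR 4.0.16 (filterByExpr, TMM, quasi-likelihood F-test) as 4 diet means over 12 ileum libraries. This fit also gave the difference between diets. A fit of 8 group means over 24 libraries gave the difference between tissues and the colon values. Adjusted p are Benjamini-Hochberg values over all genes tested, with a threshold of 0.05. The common coefficient of biological variation was 0.461. Alternatives were RLE size factors, no filter, DESeq2 1.42.0, limma 3.58.1 voom, fewer libraries, a block for library number, a per-library length trend (lowess, span 0.3) as an offset, and leaving libraries out. Fits without HN 2, HF 2, LF 1 and LN 3 and fits of 6 libraries with a block were chosen after seeing the data. Scripts were tested on simulated data.

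HN and HF libraries of the same number deviated together (correlations of 0.42, 0.71 and 0.13), all over 0.1, but HN 1 matched HF 3 best, HN 3 matched HF 1 best, and no label says what the numbers share. The fit described above has no block, and fits with a block for the number are alternatives.

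Genes were named by rule: with a mean log2 CPM above 0, a symbol and no overlap between HN and HF, the 12 higher and 12 lower with the smallest p; the 5 with the smallest p for each difference (no overlap rule there); 4 members with the smallest p of each list; and 13 fixed genes, among them CPS1, OTC and PIK3CA. A further few (OAT, FABP6, SLC10A2, LCT, APOA4, EPCAM, FGF19) describe libraries or levels. Some genes that the rule names are not reported here. The 50 lists, the members and the comparison were chosen with earlier results of these data known. Lists are given by counts and medians, without a test. Count-based precision is limited by 3 libraries a group.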

Additional observations from a re-analysis of the deposited data

How the results depend on the processing

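The count of 0 genes called between HN and HF held with RLE size factors, without a filter, with limma voom, in the 6 libraries alone, with the length trend removed and with 1 library left out (0 to 0 in 12 fits, with 598 to 1841 genes at an unadjusted p under 0.05). That unadjusted count moved by over 1.5 times, against 1219, without HN 1 (1841), HN 2 (669), HF 1 (598), HF 3 (773), or HN 2 and HF 2 together (733). On 6 libraries with a replicate block it rose to 2200 in edgeR and 2227 in DESeq2. DESeq2 moved the called count to 199, and DESeq2 on 6 libraries with a replicate block to 569; the cause was not tested. The replicate block in edgeR left 0 genes called in each of the 3 comparisons, with a smallest adjusted p of 0.530 between HN and HF, and changed no call. DESeq2 moved the difference between diets to 20 and that between tissues to 2, against 0 in edgeR; leaving out 1 library gave 0 to 0 in both. Of 3389 recomputed values of named genes 38 changed sign, in 11 of 131 genes. Without HN 2 and HF 2 the log2 changes were 0.27 for ASS1, 0.023 for MEP1A, 0.13 for ENPEP, -0.43 for SYNM, -0.17 for MYH11 and -0.38 for DES. Without LF 1 as well they were 0.26, 0.015, 0.13, -0.44, -0.17 and -0.39, and without LN 3 too 0.26, 0.013, 0.13, -0.44, -0.17 and -0.39. With 1 library left out, the changes of the genes that turned sign ran over ASS1 -2.11 to 0.64, CD22 -0.45 to 2.47, COL8A2 -0.27 to 0.35, DES -0.44 to 1.80, ENPEP -2.06 to 0.14, MEP1A -3.21 to 0.13, MS4A1 -0.57 to 3.97, MYH11 -0.26 to 1.93, NAGS -1.34 to 0.060, OTC -1.39 to 0.28 and SYNM -0.58 to 2.40. COL8A2 lay near 0 and took 0.0037 with RLE size factors, 0.0052 with DESeq2, 0.068 with voom, 0.033 in 6 libraries, 0.076 there with the block and 0.053 with DESeq2 and the block. The 3 libraries a group limit what can be called, and low genes such as UCP3 rest on few counts.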

Other observations

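The immune lists varied widely between libraries of 1 group. B-cell and follicle genes had 16 of 16 positive and a median log2 change of 0.71, but the summed level of the list was 290 to 2237 CPM in HN and 308 to 1623 CPM in HF, highest in HN 2 and HF 2. Without that pair 16 of 16 were still positive, with a median of 1.63, but this rested on HN 3. The summed level was 290 CPM in HN 1 and 830 CPM in HN 3, against 349 CPM in HF 1 and 308 CPM in HF 3. CD22, an inhibitory receptor of B cells, had 9.29, 147 and 44.8 CPM in the HN libraries, against 11.3, 86.9 and 12.8 CPM in the HF libraries. HN 2 was the highest library and HF 2 the next, and without HN 2 alone its log2 change turned to -0.45, while without HN 2 and HF 2 together it was 1.24. T and NK cell genes had 16 of 22 positive with a median of 0.36, plasma cell and IgA export genes 3 of 14 with a median of -0.35, macrophage and dendritic genes 5 of 15 with a median of -0.15, and antigen presentation genes 12 of 26 with a median of -0.01. These medians were 0.44, -0.24, 0.04 and 0.06 without HN 2 and HF 2. ERAP2, a peptide-trimming aminopeptidase, had 119.8, 121 and 63 CPM in HN, against 46.2, 63 and 57.8 CPM in HF, with HN 3 level with HF 2. Interferon-stimulated genes had 29 of 38 positive with a median of 0.39, and 35 of 38 with a median of 0.86 without HN 2 and HF 2. IFIH1, a sensor of viral RNA, had 30.7, 25.8 and 13.9 CPM with NCG (HN) and 10.8, 14.5 and 7.56 CPM without it (HF), and PARP14 had 103, 84.2 and 52.8 CPM in the HN libraries, against 28.1, 57 and 35.5 CPM in the HF libraries. HN 1 was the highest library in both and HN 3 lay inside the HF range. The summed list was 3639, 1995 and 1312 CPM in HN, against 1401, 2158 and 1612 CPM in HF. The list median without HN 2 and HF 2 thus rested on HN 1, as HN 3 lay below every HF library in this sum. In colon the same list had 9 of 38 positive, with a median of -0.31. The NF-kB member REL had 33.4, 106 and 45 CPM in HN, against 14.2, 35.9 and 15.1 CPM in HF, and the cytokine list 21 of 29 positive with a median of 0.12.

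The remaining lists are given by their median log2 change, against -0.04 for all genes. Crypt stem cell genes had a median of -0.01, enteroendocrine genes 0.08, immediate early genes 0.10, heat shock and unfolded protein genes 0.01, steroid and prolactin receptors -0.13, and genes of inositol phosphates and GPI anchors -0.19. Within that last list PGAP1 and PPIP5K2, an inositol pyrophosphate kinase at 30.4, 33.6 and 28.4 CPM with NCG (HN) and 12.9, 13.8 and 11.3 CPM without it (HF), were the 2 of 24 that DESeq2 called, against 1.43% higher calls over all genes. PIGA, which starts GPI anchor synthesis, had 21.3, 20.8 and 20.1 CPM in the HN libraries, against 14.4, 12.9 and 16.4 CPM in the HF libraries. DNA replication and mitosis genes had 10 of 34 positive with a median of -0.21, with MCM7, a replicative helicase subunit, at 77.4, 106 and 83.5 CPM in HN, against 130.2, 108 and 125 CPM in HF, and KIF11, a spindle motor, at 14.6, 33.9 and 14.7 CPM with NCG (HN) and 7.72, 11.2 and 11.7 CPM without it (HF). Of these 34 genes 2 lay wholly above HF and 4 wholly below, against 7.91% and 7.89% of all genes. The groups of MCM7 and KIF11 did not overlap, in opposite directions, and KIF11 had a log2 change of 1.05 ± 0.64, or 0.66 without HN 2 and HF 2. NRF2 targets had 4 of 23 positive with a median of -0.41, or -0.15 without that pair, among them PRDX1, a peroxiredoxin, at 572, 216 and 431 CPM in the HN libraries, against 754, 629.8 and 856 CPM in the HF libraries. Of the aryl hydrocarbon receptor genes, AHR had 65.5, 88.5 and 52.1 CPM in HN, against 37.6, 48.3 and 37.4 CPM in HF and its repressor AHRR 7.5, 7.47 and 5.71 CPM with NCG (HN) and 21.7, 17.4 and 15 CPM without it (HF), again free of overlap in opposite directions, with a list median of -0.47, or -0.20 without the pair. In that list 1 of 17 lay wholly above HF and 1 wholly below, against 7.91% and 7.89% of all genes. TINAG, a basement membrane protein, was lower in every HN library, with 20.3, 10.3 and 15.4 CPM in the HN libraries, against 25.2, 37.3 and 25.5 CPM in the HF libraries, a log2 change of -0.94 ± 0.39, or -0.44 without HN 2 and HF 2. The 11 genes of short-chain fatty acid uptake had a median of -0.22, tight junction genes -0.22, fatty acid and triglyceride synthesis -0.31, endothelium -0.08, adipocyte genes 0.24, enteric neurons and glia 0.51, skeletal muscle 0.60 over 5 genes, granulocytes and mast cells -0.51 over 11 genes and erythroid cells -0.01 over 2 genes. Without HN 2 and HF 2 the median was -0.03 for short-chain fatty acid uptake over 10 genes, 0.02 for tight junctions, 0.33 for enteric neurons and glia, 0 for skeletal muscle, -0.15 for granulocytes and mast cells, 0.15 for steroid and prolactin receptors and -0.06 for inositol phosphates and GPI anchors.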
